A study of Mus musculus with 8 samples.

Results

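The myogenic regulatory factors Myf5, Myod1, Myog and Myf6, the Mef2 genes Mef2a, Mef2c and Mef2d, and the sine oculis homeobox genes Six4 and Six5 were followed through 3 shRNA knockdowns in mouse C2C12 myoblasts. These 9 genes were chosen by name, as the transcription factors that direct skeletal muscle formation, from the 24573 genes of the deposited count table. C2C12 is a mouse myoblast line that grows as muscle precursor cells and fuses into myotubes when serum is withdrawn. RNA was sequenced from cells kept growing below confluence, in 4 groups of 2 libraries. In the first, a lentiviral short hairpin RNA (shRNA) was directed against Brd9, a subunit of the non-canonical BAF chromatin remodeller. In the second it was directed against Baf250A, encoded by Arid1a and part of canonical BAF, and in the third against Baf180, encoded by Pbrm1 and part of PBAF. The fourth group, scramble, received a control hairpin and is the reference of each knockdown. All 4 groups, scramble included, were transduced and held under puromycin selection, and the titles name 1 hairpin per target, so the effect of a target cannot be told apart from that of its hairpin.

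The 4 myogenic regulatory factors are basic helix-loop-helix (bHLH) proteins that pair with E proteins and bind the E-box of muscle genes. Myf5 and Myod1 mark committed, dividing myoblasts, Myog is switched on when they leave the cell cycle to differentiate, and Myf6 is mainly a gene of later fibres. Mef2 proteins are MADS-box factors that bind beside the bHLH factors and are held in check by class IIa histone deacetylases. Six4 and Six5 belong to the sine oculis family of homeodomain factors, which act with Eya coactivators upstream of several bHLH genes.

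Library totals ran from 17763062 to 20400855 estimated counts, and 14195 to 14768 genes had a count, except for 16402 in scramble replicate 2. The hairpins left 157 and 135 counts of Brd9 in Brd9 knockdown libraries against 717 and 637 in scramble, 1335 and 1243 of Arid1a in Baf250A knockdown libraries against 2834 and 2720, and 65 and 86 of Pbrm1 in Baf180 knockdown libraries against 876 and 969. All 8 myoblast markers listed passed the filter on low counts, with 563 to 2070 CPM (counts scaled to library size) of Des, the muscle intermediate filament, in every library. Against scramble, 2 were called higher in Brd9, 1 higher and 4 lower in Baf250A, and 4 higher in Baf180 (adjusted p below 0.05). The shares called over all genes tested were 10.0%, 29.5% and 34.2%. The 8 markers summed to 1650 and 2030 CPM in Brd9, 1240 and 1050 in Baf250A and 3480 and 2570 in Baf180, against 2040 and 1990 in scramble. Summed markers of blood cells were at 2.61 CPM or less, with Itgam at 0 in all libraries. Summed endothelial markers were at 0.436 CPM or less. Fold changes of all genes followed the GC content of their transcripts. Genes were put in 10 bins of about equal size by GC content. In the lowest and highest bin the median log2 fold change was 0.34 and -0.13 in the Brd9 knockdown, 0.93 and -0.38 in the Baf250A knockdown, and -0.81 and 0.51 in the Baf180 knockdown. A fit with GC and length offsets, which also remove any true change that follows GC content, was therefore set beside the fit with TMM scaling. Tests without further words are from the TMM fit. Separate cultures are not stated in the labels. P-values then reflect the spread between the 2 libraries of a group, estimated jointly over the 4 groups, which could be technical. That spread was unequal. Set against counting noise, its chi-square per degree of freedom was 8.7 in scramble, and 29.2, 28.9 and 36.1 in the Brd9, Baf250A and Baf180 knockdowns.

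Per kilobase of transcript, Myod1 was the most abundant of the 9 genes in all 8 libraries and Mef2d the second. In scramble, levels in RPKM (CPM divided by gene length in kilobases) were 83.7 ± 1.24 for Myod1, 25.5 ± 0.9 for Mef2d, 12.1 ± 1.95 for Myf5, 7.17 ± 1.19 for Mef2a, 3.21 ± 0.362 for Six4, 2.93 ± 0.13 for Six5 and 0.15 ± 0.00305 for Myog (SD, n = 2 each). Neighbours in that order did not overlap between libraries down to Mef2a, while Six4 and Six5 did. Myog, Myf6 and Mef2c filled the last 3 places in every library. The third place was held by Myf5 in both Brd9 and both scramble libraries, by Mef2a in both Baf250A libraries, and by Six5 or Myf5 in the Baf180 libraries.

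**Figure D1:**
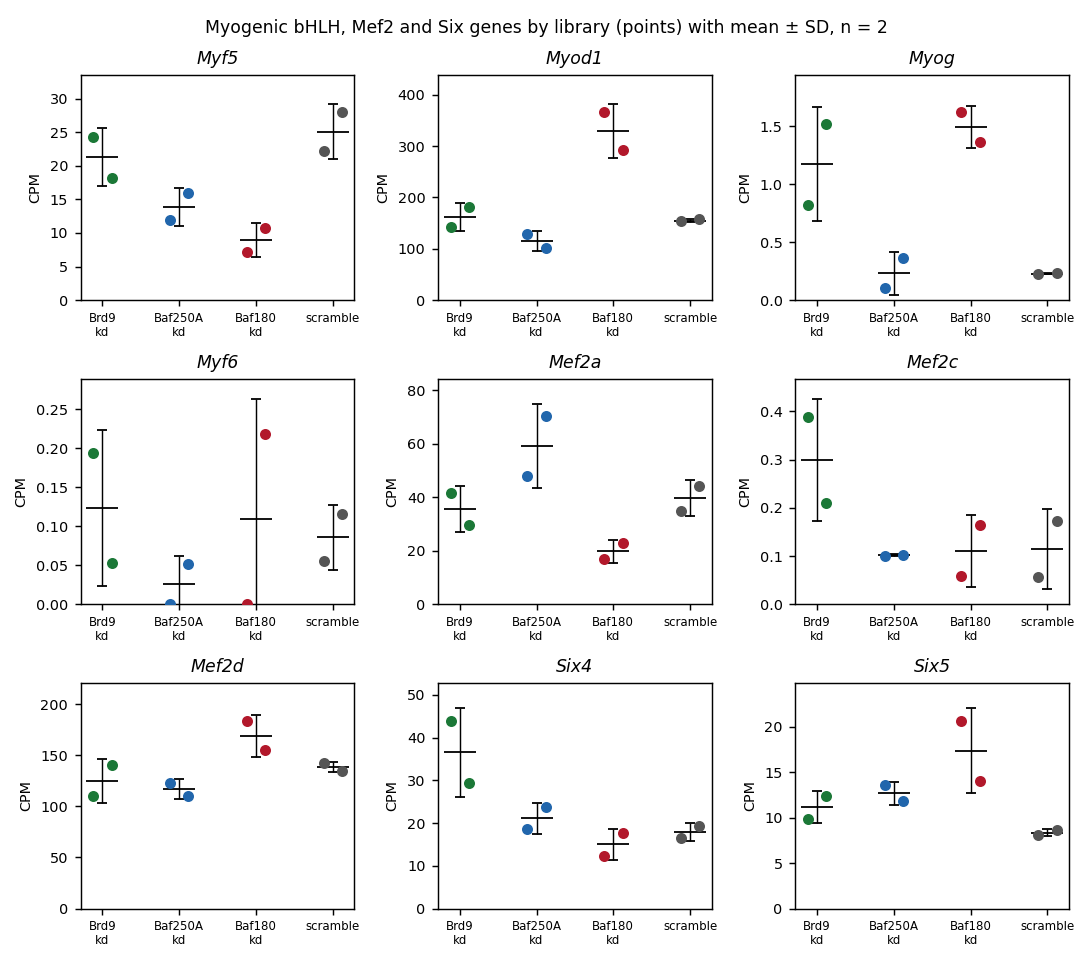
CPM of each of the 9 genes (vertical axes, linear, from 0) in the 2 libraries of each group (points), with mean and SD (bars, n = 2; the lower bar of Myf6 is clipped at 0 in 2 groups). In the Baf180 knockdown, Myod1 lay at 292 and 366 CPM and Myf5 at 7.13 and 10.7 CPM, while Myog stayed below 2 CPM in every library.

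Myod1 rose in the Baf180 knockdown, where it was 2.12-fold higher than in scramble. The gene (ID 17927; GRCm38 chr7:46376474-46379092, plus strand) encodes the factor that can turn fibroblasts into muscle. It had 366 and 292 CPM in Baf180 knockdown libraries, against 154 and 157 CPM in scramble. Both knockdown libraries were far above both scramble libraries, and the log2 fold change was 1.09 (SE 0.18, adjusted p = 0.00295). The call held with any of the 8 libraries left out, and the change was 0.61 with the offsets (adjusted p = 0.000288). Here and below, a level in bulk RNA does not tell more cells carrying a transcript apart from more RNA per cell. In the Brd9 knockdown Myod1 had 143 and 181 CPM, which lay on either side of scramble, with a log2 difference of 0.06 (95% interval -0.34 to 0.46, adjusted p = 0.838). The Baf250A knockdown gave 129 and 101 CPM, both below scramble, but its log2 difference of -0.43 did not pass the test (adjusted p = 0.0925) and was 0.05 with the offsets.

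Myf5 fell in the Baf180 and Baf250A knockdowns. Its gene (ID 17877; chr10:107482908-107486927, minus strand) encodes the earliest bHLH factor of the muscle lineage. Baf180 knockdown libraries had 7.13 and 10.7 CPM and Baf250A knockdown libraries 11.9 and 15.9 CPM, against 22.2 and 28.0 CPM in scramble. All 4 of these knockdown libraries were below both scramble libraries. The log2 fold change was -1.49 for Baf180 (SE 0.26, adjusted p = 0.00384) and -0.86 for Baf250A (SE 0.25, adjusted p = 0.0331). The Baf180 call held with any library left out, whereas the Baf250A call was lost without either of its own libraries or either scramble library (adjusted p up to 0.182). With the offsets Myf5 was called lower in both, at -0.87 for Baf180 (adjusted p = 0.000752) and -1.54 for Baf250A (adjusted p = 1.1e-05). Myf5 is in the lowest GC bin, in which the median gene was higher in the Baf250A knockdown and lower in the Baf180 knockdown. In the Brd9 knockdown Myf5 had 24.3 and 18.2 CPM, overlapping scramble. That log2 difference was -0.24 (95% interval -0.8 to 0.32, adjusted p = 0.543), and -0.54 with the offsets, where it passed the test (adjusted p = 0.00942).

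The balance of the 2 myoblast bHLH factors was read with and without the GC trend. The ratio of Myod1 to Myf5, per kilobase, was 57.7 and 30.5 in Baf180 knockdown libraries, against 7.76 and 6.3 in scramble. It was 6.58 and 11.2 in Brd9 knockdown libraries and 12.2 and 7.17 in Baf250A knockdown libraries. The Baf180 libraries were the 2 highest. Myod1 is in the highest GC bin and Myf5 in the lowest. With the fitted trend of each library removed, an alternative chosen after seeing the data, the ratio was 19.4 and 16.8 in Baf180, 19.3 and 19.5 in Baf250A and 9.9 and 10.9 in Brd9 knockdown libraries, against 6.99 and 5.96 in scramble. All 6 knockdown libraries were then above both scramble libraries, and Baf180 and Baf250A overlapped. The 4 bHLH factors together came to 202 and 164 RPKM in Baf180 knockdown libraries, 89.3 and 108 in Brd9, 75.2 and 62.4 in Baf250A, and 93.7 and 98.2 in scramble. Myod1 was 97.8% and 96.2% of that sum in the Baf180 knockdown, and 88.4% and 86.1% in scramble.

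**Figure D2:**
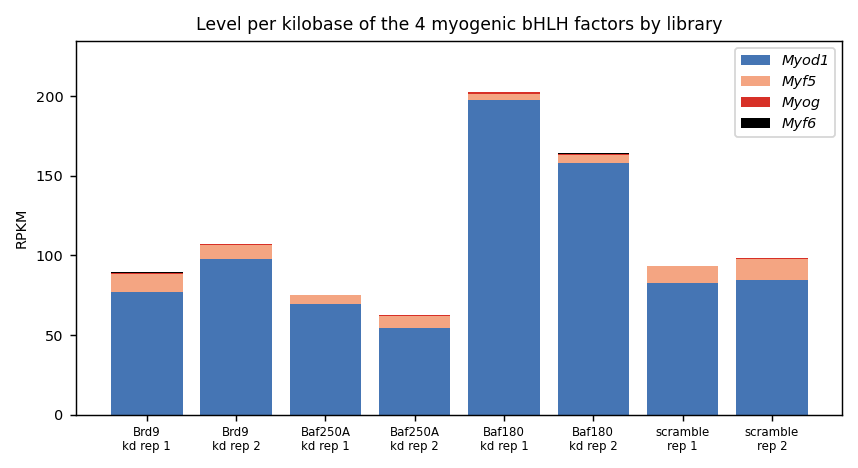
Stacked levels of Myod1, Myf5, Myog and Myf6 per kilobase (RPKM, linear axis from 0) in each of the 8 libraries. Myod1 made up most of every bar, from 86.1% to 97.8%, and the 2 Baf180 knockdown bars, at 202 and 164 RPKM, were the tallest.

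Myog rose in the Brd9 and Baf180 knockdowns, from a level near the limit of detection. Its gene (ID 17928; chr1:134290004-134292548, plus strand) encodes myogenin, the factor of terminal differentiation. Its promoter is shown because it carries matches to the binding letters of all 3 families described here. In the 250 bases before the RefSeq start (GRCm38 chr1:134289754-134290003, plus strand), capitals mark, from left to right, a match to the E-box bound by bHLH factors, the MEF3 site bound by sine oculis factors, the MEF2 core and a second E-box.
Myog promoter: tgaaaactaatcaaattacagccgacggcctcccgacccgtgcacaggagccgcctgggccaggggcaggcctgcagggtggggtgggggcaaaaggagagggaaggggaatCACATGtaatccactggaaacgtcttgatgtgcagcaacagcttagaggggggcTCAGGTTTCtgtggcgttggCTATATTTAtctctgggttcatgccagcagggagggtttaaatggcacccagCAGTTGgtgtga

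The first base of these matches lay 138, 84, 64 and 12 bases before the start. Matches were sought on both strands for the E-box CANNTG, held by 66.2% of the 32851 promoters in the same RefSeq table, the MEF2 core CTANNNNTA (19.0%), the MEF3 letters TCAGGTTTC (0.387%) and the TATA letters TATAAA (12.4%). None of the matches in the Myog window overlapped another. A match is a description of letters, not a bound site.

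Counts of Myog were 17 and 29 in Brd9 knockdown libraries and 28 and 25 in Baf180 knockdown libraries, against 4 and 4 in scramble. In CPM these were 0.824 and 1.52 in Brd9, 1.62 and 1.36 in Baf180, and 0.225 and 0.231 in scramble. All 4 knockdown libraries lay above both scramble libraries. The log2 fold change was 2.32 for Brd9 (SE 0.59, adjusted p = 0.0395) and 2.68 for Baf180 (SE 0.58, adjusted p = 0.00893), and 2.42 and 2.33 with the offsets. The Brd9 call was lost in 6 of 8 fits that left out a library (both Brd9, both Baf180 and both scramble libraries; adjusted p up to 0.203), and under DESeq2 (adjusted p = 0.0662), limma-voom (adjusted p = 0.0517) and the replicate number as a block (adjusted p = 0.0552). The Baf180 call was lost without Baf180 replicate 1 or either scramble library (adjusted p up to 0.0573). In the Baf250A knockdown Myog had 2 and 7 counts, on either side of scramble, and the log2 difference of 0.01 had a 95% interval of -1.7 to 1.72 (adjusted p = 0.992). Even at its highest, Myog was far below Myod1: the per-kilobase ratio of Myod1 to Myog was between 97.7 and 1050 over the 8 libraries.

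Of 16 markers of formed myotubes, 5 passed the filter, with 3 higher in the Brd9 knockdown, 2 lower in Baf250A, and 1 higher and 2 lower in Baf180. Of all genes tested, 10.0%, 29.5% and 34.2% were called in these comparisons. The summed level of the 16 was 65.2 and 78.9 CPM in Brd9, 49.5 and 36.8 CPM in Baf180 and 7.09 and 6.87 CPM in Baf250A knockdown libraries, against 74.5 and 73.3 CPM in scramble. Actn3, the alpha-actinin of fast fibres, made up most of each sum, from 4.34 to 70.9 CPM per library. The defining fibre genes Myh1, Myh2, Myh3, Myh4, Myh8 and Ckm were each below 1 CPM in every library. Mymk, the membrane protein of myoblast fusion, was at 1.65 and 2.2 CPM in Brd9 and 0.174 and 0.382 CPM in Baf180 knockdown libraries, against 0.505 and 0.173 CPM in scramble. Myh3 was at 0.582 and 0.89 CPM in Brd9 knockdown libraries and at 0.218 CPM or less in the others. Myh3 and Mymk reached the filter's minimum count of 10 only in Brd9 knockdown libraries, so a higher call of them there was largely fixed beforehand. Whether a few differentiating cells carried the Myog counts was not tested.

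Myf6 was barely detected. Its gene (ID 17878; chr10:107492848-107494723, minus strand) encodes Mrf4, the bHLH factor of maturing fibres. Libraries held 4 and 1 counts in the Brd9 knockdown, 0 and 1 in Baf250A, 0 and 4 in Baf180, and 1 and 2 in scramble. No group stood apart, and the exact Poisson 95% intervals of the group sums overlapped, from 0.0253 to 5.57 counts in Baf250A to 1.62 to 11.7 in Brd9, against 0.619 to 8.77 in scramble. Myf6 did not pass the filter and no difference was detectable at this depth.

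Among the Mef2 genes, Mef2a fell in the Baf180 knockdown. The gene (ID 17258; chr7:67231163-67376456, minus strand) encodes a Mef2 protein found in many tissues. It had 16.8 and 22.9 CPM in Baf180 knockdown libraries, against 35.0 and 44.4 CPM in scramble. The groups did not overlap, and the log2 fold change was -1.0 (SE 0.25, adjusted p = 0.0168), or -0.53 with the offsets (adjusted p = 0.00686). The call was lost without Baf180 replicate 1 or scramble replicate 2 (adjusted p up to 0.112). In the Baf250A knockdown Mef2a had 48.0 and 70.3 CPM, both above scramble, but the log2 difference of 0.58 did not pass the test (adjusted p = 0.104) and was 0.05 with the offsets. The Brd9 knockdown gave 41.8 and 29.7 CPM, overlapping scramble, with a log2 difference of -0.15 (adjusted p = 0.71). With the offsets that value was -0.57 and was called (adjusted p = 0.0053).

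Mef2d varied least of the 7 tested genes, with a root mean square of 0.234 around its mean log2 CPM over the 8 libraries, against up to 1.13 for Myog. It is encoded on chr3:88141941-88172091, plus strand (ID 17261), and was the predominant Mef2 transcript of these myoblasts. It had 110 and 140 CPM in the Brd9 knockdown, 123 and 110 in Baf250A and 184 and 155 in Baf180, against 142 and 135 in scramble. The Baf180 libraries were the 2 highest and the Baf250A libraries were both below scramble, while the Brd9 libraries reached into the scramble range. No comparison with scramble passed the test, with log2 differences of -0.15 (95% interval -0.5 to 0.21, adjusted p = 0.552) for Brd9, -0.25 (-0.6 to 0.11, adjusted p = 0.249) for Baf250A and 0.29 (-0.07 to 0.65, adjusted p = 0.176) for Baf180. With the offsets these were -0.25, 0.06 and -0.16, none of them called. The per-kilobase ratio of Mef2d to Mef2a was 11.2 and 6.89 in Baf180 knockdown libraries, 2.68 and 4.83 in Brd9 and 2.62 and 1.6 in Baf250A, against 4.14 and 3.11 in scramble. With the fitted GC and length trend removed it was 4.58 and 4.36 in Baf180, 3.92 and 4.76 in Brd9 and 3.58 and 3.38 in Baf250A, against 4.08 and 2.94 in scramble, where the Baf180 libraries were above both scramble libraries and the Brd9 and Baf250A libraries overlapped them. Mef2d overlaps 1700113A16Rik on the other strand, which had 0 to 13 counts per library.

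Mef2c, the Mef2 gene of differentiating muscle and heart (ID 17260; chr13:83504017-83667079, plus strand), was almost silent. It had 8 and 4 counts in the Brd9 knockdown, 2 and 2 in Baf250A and 1 and 3 in Baf180, against 1 and 3 in scramble. The Brd9 libraries were the 2 highest. Their sum of 12 counts had an exact Poisson 95% interval of 6.2 to 21.0, overlapping that of the 4 counts in scramble, 1.09 to 10.2. Mef2c did not pass the filter. In a fit with no filter its log2 difference in the Brd9 knockdown was 1.35 (SE 1.21, adjusted p = 0.581).

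Six4 rose in the Brd9 knockdown and passed the test in no other comparison with scramble. The gene (ID 20474; chr12:73099609-73114031, minus strand) encodes a homeodomain factor of early muscle. Its promoter site and that of Myf5 are shown because they carry the letters of MEF3 and MEF2 sites. Capitals mark a MEF3 match on the opposite strand for Six4 (chr12:73113326-73113354, minus strand), 99 bases before a RefSeq start, and 2 MEF2 core matches on opposite strands that overlap for Myf5 (chr10:107486297-107486326, minus strand), 182 and 181 bases before a start. Both lie inside the outermost span of their gene.
Six4 site: tggcctggggGAAACCTGAtcggccagat
Myf5 site: taagtgatccCTAGGTTTAGtttatccaga

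RefSeq windows were found for 7 of the 9 genes, 10 windows in all, and not for Myod1 and Myf6. The second Six4 window and those of Mef2a, Mef2d and Six5 held none of the 4 motifs. Mef2c windows held E-box, MEF2 core and TATA matches.

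Six4 had 44.0 and 29.3 CPM in Brd9 knockdown libraries, against 16.5 and 19.3 CPM in scramble. Both knockdown libraries were above both scramble libraries but differed from each other. The log2 fold change was 1.04 (SE 0.25, adjusted p = 0.0334), and 0.65 with the offsets (adjusted p = 0.00427). The call was lost without Brd9 replicate 1 or either scramble library (adjusted p up to 0.238) and with the replicate number as a block (adjusted p = 0.0521). Baf250A knockdown libraries had 18.6 and 23.7 CPM and Baf180 knockdown libraries 12.4 and 17.7 CPM, all in or near the scramble range. Their log2 differences were 0.24 (95% interval -0.32 to 0.81, adjusted p = 0.477) and -0.25 (-0.82 to 0.32, adjusted p = 0.466), and with the offsets -0.09 and 0.08, neither called. Six4 overlaps Mnat1 on the other strand, which had 246 to 651 counts, and the counting is not stated to use strand. Mnat1 itself gave a log2 difference of 0.23 in the Brd9 knockdown (adjusted p = 0.51).

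Six5 rose in the Baf180 knockdown. The gene (ID 20475; chr7:19094544-19098549, plus strand) lies beside Dmpk, at the myotonic dystrophy locus in humans. Baf180 knockdown libraries had 20.7 and 14.0 CPM, against 8.09 and 8.61 CPM in scramble. Both were above scramble, with a log2 fold change of 1.05 (SE 0.23, adjusted p = 0.00979). The call was lost without Baf180 replicate 1 or either scramble library (adjusted p up to 0.0662), and the change was 0.45 with the offsets (adjusted p = 0.0238). Six5 had 13.6 and 11.8 CPM in the Baf250A knockdown and 9.89 and 12.4 CPM in the Brd9 knockdown, all above both scramble libraries. Neither passed the test (log2 difference 0.61, adjusted p = 0.0756, and 0.42, adjusted p = 0.256), and both did with the offsets, at 1.06 (adjusted p = 0.000233) and 0.44 (adjusted p = 0.0349). Six5 overlaps Bhmg1, which is not used here, so its counts are uncertain where reads could be shared. The per-kilobase ratio of Six4 to Six5 was 2.28 and 1.21 in Brd9, 0.697 and 1.03 in Baf250A and 0.307 and 0.646 in Baf180 knockdown libraries, against 1.04 and 1.15 in scramble. With the fitted trend removed it was 1.47 and 1.19 in Brd9, 0.528 and 0.501 in Baf250A and 0.772 and 1.01 in Baf180, against 1.07 and 1.21 in scramble, so that the Baf250A libraries, and not the Baf180 libraries, were the 2 lowest.

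**Figure D3:**
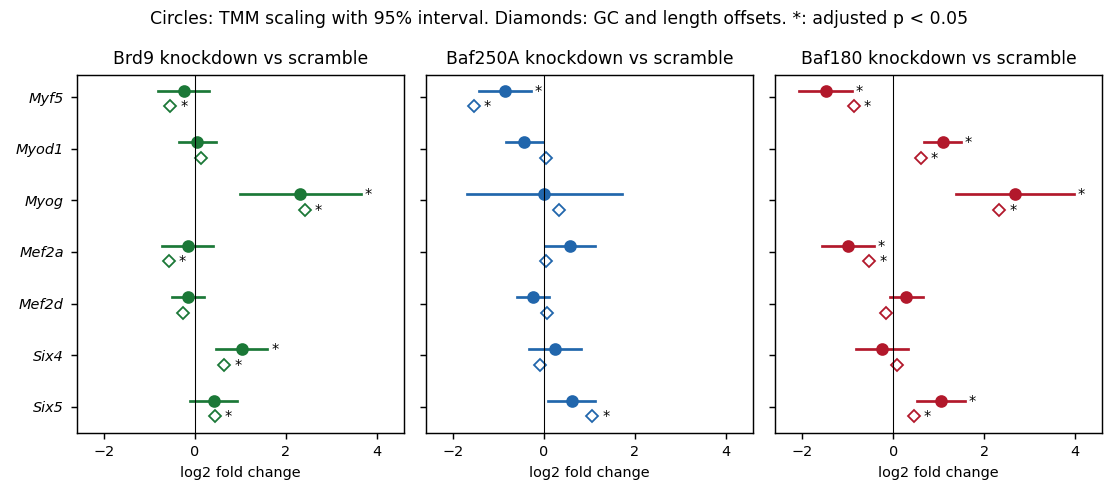
Log2 fold change against scramble of the 7 tested genes in each knockdown, with TMM scaling (circles, lines showing the 95% interval) and with GC and length offsets (diamonds); asterisks mark an adjusted p below 0.05. Myf5, Myod1, Myog, Mef2a and Six5 carry an asterisk under both fits in the Baf180 panel, whereas the Brd9 panel gains 3 and the Baf250A panel 1 with the offsets.

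Of the 9 genes, 7 passed the filter on low counts. Myog passed only through the Brd9 and Baf180 libraries, in which it was high, so its calls were largely fixed beforehand. Called against scramble were Myog and Six4, both higher, in the Brd9 knockdown, where 10.0% of the 12420 genes tested were called (6.45% higher and 3.57% lower). In the Baf250A knockdown only Myf5 was called, lower, where 29.5% of all genes were (15.5% higher and 14.0% lower). In the Baf180 knockdown Myod1, Myog and Six5 were higher and Myf5 and Mef2a lower, where 34.2% of all genes were called (17.2% higher and 17.0% lower). With the offsets each of these calls was made again in the same direction. These comparisons share the 2 scramble libraries. A single F test over the 4 groups called each of the 7 genes, with adjusted p from 0.000702 (Myod1) to 0.0484 (Mef2d), where 68.9% of all genes were called.

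Some values lay near the median of genes of like GC content and others did not. Mef2d in the Baf180 knockdown (0.29) was close to the median of its GC bin (0.37), as was Six4 (-0.25 against -0.38). Myf5 in the Baf250A knockdown, at -0.86, lay against a median of 0.93 in its bin, and Six5 there, at 0.61, against -0.38. Myog in the Baf180 knockdown, at 2.68, lay above the 0.3 of its bin, and in the Brd9 knockdown, at 2.32, above -0.14. Myod1 in the Baf180 knockdown, at 1.09, was above both the median (0.51) and the upper quartile (0.89) of its bin.

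**Figure D4:**
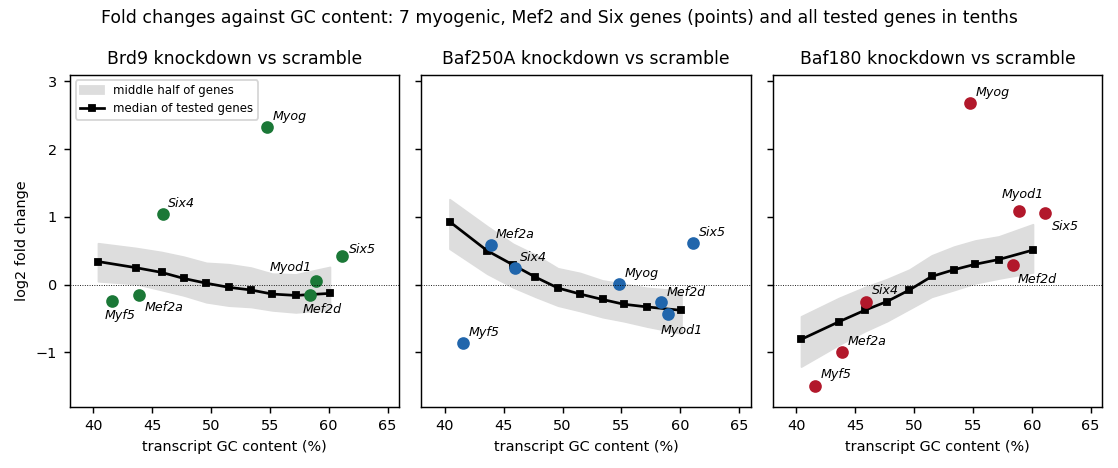
Log2 fold change against scramble of the 7 tested genes (points) over transcript GC content (%), with the median (line) and middle 50% (grey) of all tested genes in 10 bins of GC content. Myf5 lay at -0.86 in the Baf250A panel, where the median of its bin was 0.93, while Mef2d and Six4 lay in the grey band in the Baf180 panel.

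The knockdowns also differed from each other in these genes. Between Baf250A and Brd9, where 25.0% of all genes were called (10.0% higher and 15.0% lower), Myog (log2 difference -2.31, adjusted p = 0.0188) and Six4 (-0.80, adjusted p = 0.0438) were lower in the Baf250A knockdown. With the offsets Myf5 (-1.01) was also called lower there, and Mef2a (0.62), Mef2d (0.31) and Six5 (0.62) higher. Between Baf250A and Baf180, where 62.5% were called (30.8% higher and 31.7% lower), Mef2a was higher in the Baf250A knockdown (1.57, adjusted p = 0.000804) and Myod1 (-1.52, adjusted p = 0.000221), Myog (-2.66, adjusted p = 0.003) and Mef2d (-0.54, adjusted p = 0.0152) were lower. With the offsets the Mef2d value was 0.22 and not called (adjusted p = 0.0754), while Myf5 (-0.68, adjusted p = 0.00203) and Six5 (0.61, adjusted p = 0.00266) were called with signs opposite to the TMM fit. Between Brd9 and Baf180, where 49.6% were called (26.3% higher and 23.3% lower), Six4 (1.28, adjusted p = 0.00612), Myf5 (1.25, adjusted p = 0.0072) and Mef2a (0.85, adjusted p = 0.0234) were higher in the Brd9 knockdown. Lower there were Myod1 (-1.02, adjusted p = 0.00476), Six5 (-0.64, adjusted p = 0.043) and Mef2d (-0.44, adjusted p = 0.0445). With the offsets, 2 of these 6 calls, Myod1 and Six4, were made again.
Myog did not differ detectably between the Brd9 and Baf180 knockdowns (-0.35, 95% interval -1.35 to 0.64, adjusted p = 0.517). It passed the filter only through the libraries of those groups. Its lower calls in the Baf250A knockdown against each of them were thus largely fixed beforehand. Of the calls between knockdowns, 4 were made with any library left out: Mef2a, Myod1 and Myog between Baf250A and Baf180, and Myod1 between Brd9 and Baf180. The Mef2d call between Brd9 and Baf180 was lost in 6 of 8 such fits (adjusted p up to 0.292) and the Six4 call between Baf250A and Brd9 in 5 (up to 0.283). Six5 between Brd9 and Baf180 was lost without Brd9 replicate 1, Baf180 replicate 1 or either scramble library (up to 0.31). Myf5, Mef2a and Six4 between Brd9 and Baf180 were lost without replicate 1 of either group, Myog between Baf250A and Brd9 without Brd9 replicate 2 or Baf250A replicate 1, and Mef2d between Baf250A and Baf180 without Baf250A replicate 2 or Baf180 replicate 1.

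The genes whose pattern over the 8 libraries was most like each of the 7 were found by the root mean square difference of centred log2 CPM, among 11895 named genes. Nearest to Myod1 were Plxnb2, a semaphorin receptor, at 0.044 and St3gal3, a sialyltransferase, at 0.061. Nearest to Mef2d were Kdm5c, a histone demethylase, and Sap30bp, both at 0.045. Six4 was followed by Mid2 at 0.051 and Arhgap42 at 0.115, and Mef2a by Ccdc66 at 0.076 and Itsn2 at 0.085. Six5 was most like Id3 at 0.116 and the water channel Aqp1 at 0.12, and Myf5 like Arhgef3 at 0.178 and the hyaluronan receptor Cd44 at 0.199. Myog had the least close neighbours, Fgfr4, a receptor of myoblasts, at 0.377 and the transglutaminase Tgm5 at 0.386. These distances are descriptions over libraries that share the GC trend.

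Of 21 listed regulators that act before the bHLH genes, 12 passed the filter, with 3 higher in the Brd9 knockdown, 1 higher and 2 lower in Baf250A, and 4 higher in Baf180. Called shares were 25.0%, 25.0% and 33.3%, against 10.0%, 29.5% and 34.2% of all genes. Medians of log2 fold change were 0.39, 0.16 and 0.35 in that order, against 0.04, -0.02 and -0.02 over all genes. Pax7, the factor of muscle stem cells, had 240 and 195 counts in Brd9, 18 and 4 in Baf250A and 266 and 254 in Baf180 knockdown libraries, against 57 and 48 in scramble. It was higher in Brd9 (log2 fold change 1.87, adjusted p = 0.0101) and Baf180 (2.29, adjusted p = 0.00182) and lower in Baf250A (-2.40, adjusted p = 0.00528). Of the Eya coactivators, Eya1 was higher in Baf250A (1.04, adjusted p = 0.0208) and Eya4 in Brd9 (1.02, adjusted p = 0.0387). Eya1 gave 0.33 in Brd9 and -0.18 in Baf180, and Eya4 0.52 in Baf250A and 0.69 in Baf180, none of them called. With the offsets Eya4 was 0.64 in Brd9 and 1.40 in Baf180, both called (adjusted p = 0.00304 and 1.84e-05). Foxo3, a forkhead factor, was higher in Brd9 (0.66, adjusted p = 0.046), Tbx1 in Baf180 (0.96, adjusted p = 0.0217), and the calcium-responsive factor Nfatc2 lower in Baf250A (-1.97, adjusted p = 0.0161). Srf, which drives actin genes, was higher in Baf180 (0.54, adjusted p = 0.0163), but at 0.01 and not called with the offsets, which instead called it higher in Baf250A (0.69, adjusted p = 0.000537), as they did Tbx1 (0.85, adjusted p = 0.00065). Of the 9 calls named from this list, those of Pax7 in Baf250A and Baf180 held with any library left out, and the others were lost in at least 1 fit (adjusted p up to 0.297).

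E proteins and inhibitors of bHLH factors included Id genes called higher and the repressor Msc called lower. Of 18 listed, 16 passed the filter, with 4 higher and 2 lower in Brd9, 7 higher and 2 lower in Baf250A and 3 higher and 1 lower in Baf180, and medians of 0.47, 0.50 and 0.06. Called shares were 37.5%, 56.2% and 25.0%, against 10.0%, 29.5% and 34.2% of all genes. Id3, which sequesters E proteins, was higher in Brd9 (0.58, adjusted p = 0.0378), Baf250A (0.72, adjusted p = 0.00734) and Baf180 (1.09, adjusted p = 0.00113). Id1 was higher in Baf250A (0.75, adjusted p = 0.00366) and Baf180 (0.66, adjusted p = 0.00569), with 0.42 in Brd9 (adjusted p = 0.0678; 0.61 and called with the offsets). Id2 was higher in Brd9 (0.66, adjusted p = 0.0464) and Baf250A (0.98, adjusted p = 0.00482), with 0.28 in Baf180. With the offsets Id2 was called in all 3, at 0.50, 0.42 and 0.88. Of the E proteins, Tcf3 passed no test (0.06, -0.34 and 0.23 for Brd9, Baf250A and Baf180), though with the offsets it was called lower in Baf180 (-0.31, adjusted p = 0.0315), while Tcf12 was called in Baf250A only (0.73, adjusted p = 0.0453; 0.53 in Brd9 and -0.56 in Baf180). Msc, the repressor musculin, had 41 and 51 counts in Brd9, 0 and 0 in Baf250A and 8 and 13 in Baf180 knockdown libraries, against 87 and 94 in scramble. It was lower in Brd9 (-1.15, adjusted p = 0.047) and Baf180 (-3.12, adjusted p = 0.000791), and at least 33.7-fold lower in Baf250A, at a floor of 3 counts per library. In the Brd9 knockdown the Notch effector Hey1 was higher (1.63, adjusted p = 0.00295) and Twist2 lower (-0.67, adjusted p = 0.0349). The inhibitor Mdfi had 25 and 28 counts there, against 3 and 1 in scramble (adjusted p = 0.00729). Mdfi had 4 and 8 counts in Baf250A and 1 and 1 in Baf180 knockdown libraries, so it passed the filter only through the Brd9 libraries. Of these 14 calls, 4 held with any library left out: Id2 and Msc in Baf250A, and Id3 and Msc in Baf180 (adjusted p of the others up to 0.328).

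Of 23 partners and regulators of Mef2, 21 passed the filter, with 3 higher and 2 lower in Brd9, 6 higher and 3 lower in Baf250A and 6 higher in Baf180. Medians were 0.28, 0.17 and 0.22, and called shares 23.8%, 42.9% and 28.6%, against 10.0%, 29.5% and 34.2% of all genes. With the offsets the splits were 5 higher and 4 lower in Brd9, 10 and 3 in Baf250A, and 4 and 4 in Baf180. Hdac4, a class IIa deacetylase that represses Mef2 proteins, was higher in Brd9 (0.86, adjusted p = 0.00852), Baf250A (0.72, adjusted p = 0.00852) and Baf180 (0.52, adjusted p = 0.0264). Hdac5 was lower in Baf250A (-1.12, adjusted p = 0.00227) and higher in Baf180 (0.72, adjusted p = 0.0126), with -0.29 in Brd9 (-0.31 and called with the offsets). Its Baf250A and Baf180 values were -0.71 and 0.24 with the offsets, both called (adjusted p = 0.000134 and 0.0436). Hdac7 was higher in Baf180 (1.05, adjusted p = 0.00211), and with the offsets also in Baf250A (0.76, adjusted p = 7.71e-05). Hdac9 passed no test (1.05, -1.26 and -1.37 for Brd9, Baf250A and Baf180), though with the offsets it was called lower in Baf250A (-1.53, adjusted p = 0.0156). The cofactor Vgll3 was higher in Brd9 (1.30), Baf250A (1.78) and Baf180 (1.06), with adjusted p of 0.0101, 0.00106 and 0.01, and Vgll2 in Brd9 (1.59, adjusted p = 0.00543) and Baf250A (1.58, adjusted p = 0.0025). Of these 11 calls, 4 held with any library left out: Hdac5, Vgll2 and Vgll3 in Baf250A and Hdac7 in Baf180 (adjusted p of the others up to 0.189).

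Known targets of the myogenic factors were called in both directions. Of 35 listed, 28 passed the filter, with 7 higher and 4 lower in Brd9, 3 higher and 14 lower in Baf250A and 8 higher and 7 lower in Baf180, and medians of 0.37, -0.74 and 0.42. Called shares were 39.3%, 60.7% and 53.6%, against 10.0%, 29.5% and 34.2% of all genes. The list holds Myh3, Mymk and Igf2, which passed the filter only through knockdown libraries in which they were high. A higher call of them there was largely fixed beforehand. Chrna1, the alpha subunit of the muscle acetylcholine receptor, had 320 and 306 counts in Baf250A knockdown libraries against 5377 and 5223 in scramble (log2 fold change -4.24, adjusted p = 1.37e-06), and 0.06 in Brd9 and -0.05 in Baf180 passed no test. Its delta subunit Chrnd was lower in Brd9 (-1.04, adjusted p = 0.0102), Baf250A (-4.32, adjusted p = 1.22e-05) and Baf180 (-3.50, adjusted p = 2.79e-05), as was Dok7, an adaptor of the neuromuscular junction (-2.78, -4.92 and -3.87; adjusted p = 0.000669, 4.07e-05 and 0.000109).
Cdh15, the M-cadherin of myoblasts, was lower in Baf250A (-2.46, adjusted p = 8.29e-05) and higher in Baf180 (0.81, adjusted p = 0.013), with -0.02 in Brd9. With the offsets its Baf250A and Baf180 values were -2.01 and 0.27, both called (adjusted p = 3.49e-07 and 0.0397). Acta1, skeletal actin, was higher in Baf250A (1.2, adjusted p = 0.00334) and Baf180 (2.64, adjusted p = 8.03e-05), with -0.52 in Brd9 (-0.35 and called with the offsets). Tnnt2, a troponin T, was lower in Brd9 (-2.06, adjusted p = 9.79e-05), Baf180 (-0.84, adjusted p = 0.00289) and Baf250A (-0.49, adjusted p = 0.0251; -0.16 and not called with the offsets). The cell cycle inhibitor Cdkn1a was higher in Baf180 (0.91, adjusted p = 0.00256), with 0.41 in Brd9 and -0.10 in Baf250A. With the offsets these last values were 0.46 and 0.23, both called. Igf2, a growth factor called higher in Brd9 and Baf250A, had 72 and 76 counts in Brd9, 108 and 133 in Baf250A and 4 and 9 in Baf180 knockdown libraries, against 0 and 4 in scramble. Igf2 passed the filter only through the Brd9 and Baf250A libraries, in which it was high. Of the 17 calls named from this list, 14 held with any library left out; Chrnd in Brd9, Cdh15 in Baf180 and Tnnt2 in Baf250A did not (adjusted p up to 0.196).
Markers of other cell types moved too, and their part in these results was not tested. Smooth muscle markers, 8 listed and 7 tested, summed to 5680 and 6990 CPM in Brd9, 10700 and 9120 in Baf250A and 11800 and 9490 in Baf180 knockdown libraries, against 3900 and 3910 in scramble. Of the 7, 4 were called higher in Brd9, 6 in Baf250A and 6 in Baf180, and 0 lower. Of all genes, 10.0%, 29.5% and 34.2% were called in these comparisons. Acta2 made up most of each sum, from 3090 to 10400 CPM per library. Myh11 reached the filter's minimum count only in Baf250A and Baf180 knockdown libraries, so a higher call of it there was largely fixed beforehand. Smtn lay below scramble (281 and 271 CPM) in Brd9 (175 and 227) and Baf250A (237 and 181). Neural markers, 8 listed and 6 tested with Snap25 at 0, summed to 329 and 358 CPM in Brd9, 62.6 and 62.2 in Baf250A and 216 and 190 in Baf180, against 763 and 695 in scramble. Of the 6, 3 were called lower in Brd9, 6 in Baf250A and 4 in Baf180, and 0 higher. Adipocyte markers, 8 listed and 4 tested with Plin1 and Cidec at 0, summed to 56.4 to 80.2 CPM over the knockdown libraries, against 26.6 and 23.4 in scramble. Of the 4, 2 were called higher in Brd9, 2 higher and 1 lower in Baf250A, and 3 higher in Baf180. Bone and cartilage markers, 8 listed and 5 tested with Ibsp at 0, summed to 109 to 198 CPM over the knockdown libraries, against 155 and 149 in scramble. Of the 5, 1 was called higher in Brd9, 3 higher in Baf250A, and 2 higher and 1 lower in Baf180. Runx2 and Sox9 made up most of each sum. Alpl, Col2a1 and Sp7 reached the filter's minimum count only in knockdown libraries, so a higher call of them there was largely fixed beforehand. Col2a1 was at 34.8 and 28.3 CPM in Baf250A and 5.22 and 4.04 in Baf180 knockdown libraries, against 0.168 and 0.462 in scramble. Alpl was at 5.19 and 4.98 CPM in Brd9 knockdown libraries, against 0.168 and 0.0578 in scramble.

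**Figure D5:**
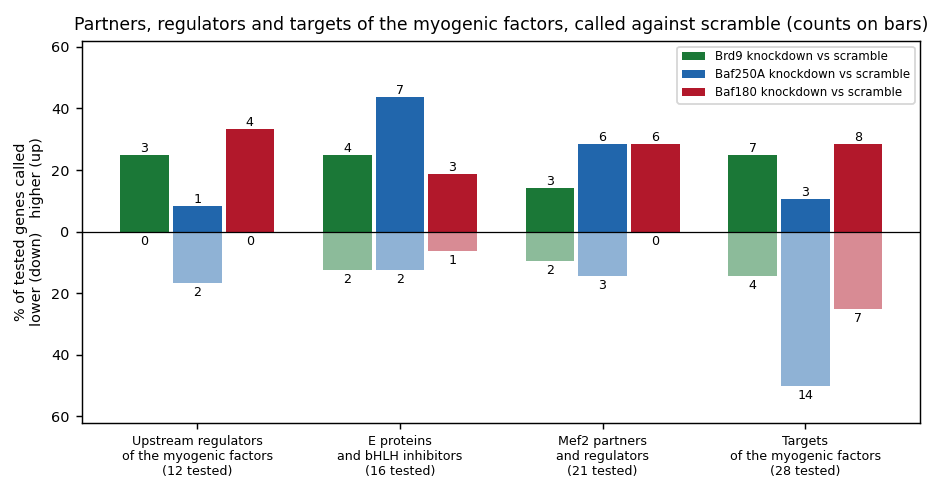
Share of tested genes called higher (up) or lower (down, paler) than scramble in 4 lists of regulators, partners and targets, with the number of genes on each bar. The largest bar is the 14 of 28 tested targets that were lower in the Baf250A knockdown.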

How the data were processed

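RNA from growing C2C12 cells was measured in 8 libraries, 2 per shRNA. The deposited values are estimated counts per gene and library, not normalised, and per the file headers the table also gives another value, gene length in bases. The submitters' processing notes list RSEM, Bowtie2, HISAT2, StringTie, Cufflinks, DESeq2 and the build mm10, with no role or version, and do not say whether counting used strand. Groups come from the sample titles.

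The 9 genes, the gene lists and the alternatives were chosen with earlier results of these data known. Counts were rounded, filtered by filterByExpr (minimum count 10, minimum total 15) and scaled by TMM. All 8 libraries entered a quasi-likelihood fit in edgeR 4.0.16 (R 4.3.3) with 4 groups. P-values were adjusted by Benjamini-Hochberg over the 12420 genes tested, and an adjusted p below 0.05 was called. Standard errors were obtained by dividing the size of a log2 fold change by the root of its F value. CPM use TMM-adjusted totals, and RPKM also the deposited length. GC and length offsets were loess curves (span 0.3) on transcript GC content, known for 98.95% of tested genes, and on length. Coordinates and promoters are RefSeq, GRCm38. The procedure was run on simulated counts that had no GC or length trend and the same spread in each group. That run therefore cannot tell how these features affect the calls. Intervals of log2 differences include the spread between libraries, whereas Poisson intervals and floors cover counting error only.

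Named genes were the 9 genes, the 2 nearest patterns of each tested one, up to 3 called genes with the lowest p per list and comparison with scramble, and 12 fixed genes (Pax7, Cdh15, Tcf3, Tcf12, Id1, Id3, Hdac5, Hdac9, Srf, Eya1, Chrna1 and Cdkn1a). Alternatives were the offsets, DESeq2 1.42.0, limma-voom (limma 3.58.1), upper-quartile or RLE scaling, no filter or one on a mean of at least 5 CPM, a replicate block, a fit of only the 4 libraries compared, and each library left out.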

Additional observations from a re-analysis of the deposited data

How the results depend on the processing

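Precision is limited by 2 libraries per group and, for Myog, Myf6 and Mef2c, by counts of 29 or fewer per library. Counts of the tested genes called below are out of 7, or 9 with no filter or by DESeq2, and 6 with a mean of at least 5 CPM. They are also out of 6 for Baf250A against scramble from the 4 libraries alone. In the Brd9 knockdown against scramble, 2 were called by edgeR, 1 with a mean of at least 5 CPM, 1 by DESeq2, 1 by limma-voom, 5 with the offsets and 4 with offsets and block. In Baf250A against scramble, 1 was called by edgeR, 4 with no filter, 2 by DESeq2, 4 from the 4 libraries alone, 2 with the offsets and 2 with offsets and block. Between Baf250A and Brd9, 2 were called, 3 with RLE or upper-quartile scaling and by DESeq2 (also 3), 5 with no filter, 0 with a mean of at least 5 CPM in edgeR (4 of 6 at an unadjusted p below 0.05), 1 from the 4 libraries alone, 6 with the offsets and 6 with offsets and block. Between Brd9 and Baf180, 6 were called, 4 with upper-quartile scaling or from the 4 libraries alone, and 2 with the offsets, with or without block. Of all genes, 1244 were called for Brd9 against scramble (64.4% higher), 2588 with no filter, 2540 from the 4 libraries alone, 1722 by DESeq2 (52.3% higher), 3739 with the offsets (39% higher) and 3200 with offsets and block. Between Baf250A and Brd9, 3108 were called (40.1% higher), 5475 with the offsets (57.9%) and 5074 with offsets and block, and between Brd9 and Baf180 6158 (53.1%), 4094 with the offsets (42.5%) and 3536 with offsets and block.

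Deviations of equally numbered libraries correlated at -0.481 to 0.456 between groups, with no common sign. The labels do not say whether equal replicate numbers mark a shared batch. With the replicate block, 0 of the 7 genes were called for Brd9 in edgeR (2 at an unadjusted p below 0.05), 1 for Baf250A, 5 for Baf180, 1 between Baf250A and Brd9, and 4 between Brd9 and Baf180, and 721 of all genes for Brd9.

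With a library left out, calls among the 7 ranged from 0 to 2 for Brd9, 0 to 2 for Baf250A, 2 to 5 for Baf180, 1 to 3 between Baf250A and Brd9, 3 to 7 between Baf250A and Baf180, 1 to 6 between Brd9 and Baf180, and 5 to 7 in the F test. Where this was 0, 1 or 2 of the 7 had an unadjusted p below 0.05. Of all genes, calls ranged from 231 to 1558, 1171 to 4114, 1560 to 4514, 1381 to 3371, 5455 to 7896 and 1150 to 6605 in those 6 comparisons.

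Signs turned for called and uncalled values. With the offsets, also with the block, they were for Baf250A against Baf180 Myf5 -0.68 (-0.67 with block; called lower, against 0.63 and not called), Mef2d 0.22 (called at -0.54 without), Six4 -0.18 and Six5 0.61 (called higher, against -0.45 and not called). For Baf250A against scramble they were Myod1 0.05, Mef2d 0.06 and Six4 -0.09, and for Baf180 against scramble Mef2d -0.16 and Six4 0.08. For Brd9 against Baf180 they were Myog 0.10 (0.06 with block) and Mef2a -0.05 (-0.04 with block; called at 0.85 without), and for Baf250A against Brd9 Mef2d 0.31. Myog in Baf250A against scramble was -0.02 with upper-quartile scaling, -0.22 with limma-voom and -0.01 with the block. With a library left out, turned values were Myog from -1.08 to 0.71 in Baf250A against scramble and from -0.85 to 0.03 in Brd9 against Baf180, Myod1 from -0.10 to 0.25, Mef2a from -0.40 to 0.10 (also 0.03) and Mef2d from -0.31 to 0.04 in Brd9 against scramble, and Mef2d from -0.23 to 0.13 (also 0.01) in Baf250A against Brd9. The cause of these shifts was not tested.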
